A study of Mus musculus with 10 samples.

Results

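The integrin and laminin subunit genes were examined in mSCLC-2405, a line of murine small cell lung cancer cells, cultured with DMSO (control) or with 250 μM stiripentol, an antiseizure medication, for 48 h. The genes were taken by symbol, as the integrin alpha, integrin beta and laminin alpha, beta or gamma subunits in the deposited table. The genes described are 34 among 26335 rows, made up of 16 integrin alpha, 8 integrin beta and 10 laminin genes. A mean above 0 on the log2 CPM scale over the 10 libraries (CPM, a measure of reads relative to the library's sum) was reached by 21 of the 34 genes, of 12306 in the whole table. These 21 (8 integrin alpha, 6 integrin beta and 7 laminin genes) are described with tests, and all 21 had a mean above 0 in both groups, so none passed through 1 group alone. The last gene inside this limit was Itga7, with a mean of 1.03, and the first genes outside it were Lama1 at -0.16 and Itga10 at -0.19. The line came from a primary tumour of mice in which alleles of Rb1, among others, are deleted by Cre, and both groups are this 1 line, so they share these deletions. There were 5 control and 5 stiripentol libraries. The sample records do not say whether these are separate cultures, so p-values measure the spread between these libraries, which may be technical.

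Integrins are receptors on the cell surface, each made of an alpha and a beta subunit, that tie the cytoskeleton to the matrix outside the cell or to other cells. The alpha subunit largely sets the ligand: some bind collagen, some laminin, some the RGD motif of fibronectin and vitronectin. Laminins are cross-shaped trimers of an alpha, a beta and a gamma chain that form the sheet of the basement membrane, and they are the ligands of the laminin-binding integrins. Small cell lung cancer is a neuroendocrine tumour, and adhesion to laminin and other matrix proteins is known to affect how its cells grow and survive drugs.

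The recovered totals were 22375625 to 65299372 reads per library, the lowest being control 5. Each group's libraries formed 2 clusters, with Pearson correlations across genes of 0.983 to 0.997 within a cluster and 0.920 to 0.939 between the clusters of a group. Controls 4 and 5 with stiripentol 1 and 2 are called set A here, and controls 1 to 3 with stiripentol 3 to 5 set B. Which control cluster belongs with which stiripentol cluster follows the numbering in the study's report and not the sample records. The correlations do not settle it (0.881 to 0.936 between groups within a set, 0.840 to 0.938 across sets). A gene without reads has -4.82 in controls 1 to 3 and -4.74 in all other libraries. The deposited values of controls 1 to 3 were thus normalized apart from those of controls 4 and 5 and of every stiripentol library. Set B and the comparison of all 10 libraries cross this line, and set A does not. Of 7 neuroendocrine markers, 5 were in the table, of which Ncam1 and Uchl1 passed the limit while Insm1 had at most 10 reads, Syp at most 20 and Dll3 at most 3 in any library. Insm1, Syp and Dll3 were thus at or near 0 reads in a line labelled as small cell lung cancer, while Ncam1 and Uchl1 were expressed. The epithelial keratin genes Krt8 and Krt18 had mean log2 CPM of 9.95 and 10.10, whereas Epcam had at most 1 read and Cdh1 at most 63.

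Stiripentol libraries had lower RNA of 7 of the 21 genes and higher RNA of 2, by limma across all 12306 genes at an adjusted p under 0.05 (Benjamini-Hochberg). The 7 that fell were the collagen-binding alpha subunits Itga1 and Itga2, the laminin-binding Itga3, the RGD-binding Itgav, the beta subunits Itgb1 and Itgb5, and the laminin chain Lamb1. The 2 that rose were the beta subunit Itgb7 and the laminin chain Lamb3. Across all genes tested, 14.1% were called lower and 13.6% higher, against 33.3% lower and 9.52% higher of these 21. The 5 stiripentol libraries were all below the 5 controls for 7 of the 21 genes (14.3% of all genes) and all above them for 2 (13.0% of all genes), and the groups overlapped for the other 12. The median change was -0.38 on the log2 scale over the 21 genes, -0.80 over the 14 integrin and -0.16 over the 7 laminin genes, beside -0.06 over all genes tested. Of the 21 changes, 17 were below 0, and among all genes 6596 of 12306 were. These counts describe the genes and were not tested as a set. In bulk RNA, fewer cells of a type and less RNA per cell cannot be told apart.

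**Figure D1:**
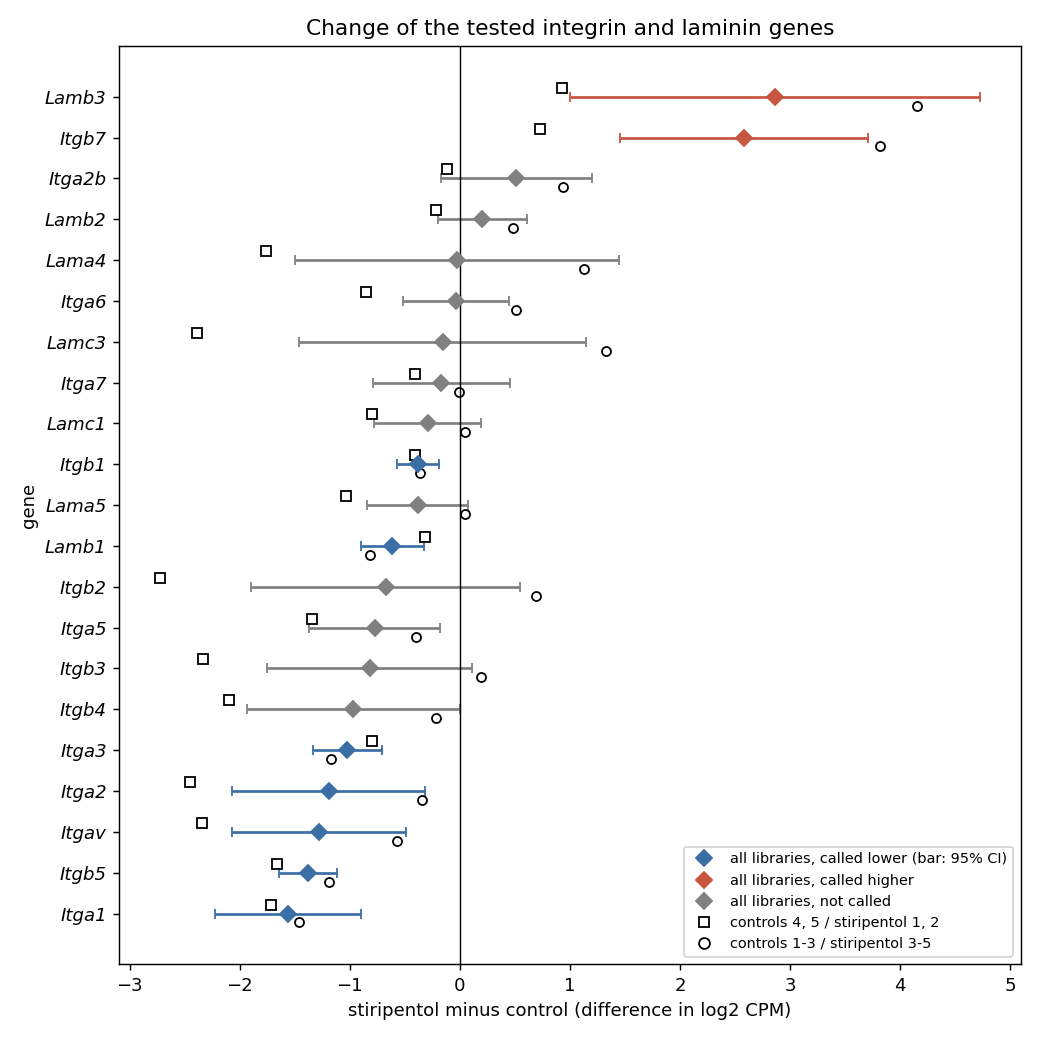
Difference in log2 CPM (stiripentol minus control, x axis) for each of the 21 tested integrin and laminin genes (y axis), with diamonds and 95% confidence intervals from limma over all 10 libraries, open squares for set A alone and open circles for set B alone. The 7 blue genes lie left of 0 and the 2 red genes, Itgb7 at 2.58 and Lamb3 at 2.86, lie right of it. The square and the circle lie on opposite sides of 0 for 9 genes, among them Lamc3, Lama4 and Itgb2.

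The upstream 250 bases of 4 of these genes are shown, those of Itgb5, which had the smallest adjusted p, of Itgb1, the common beta subunit, and of the 2 genes that rose. The sequences are from RefSeq on GRCm38.p6, each runs from 5′ to 3′ on the strand of the gene up to the base before the start that RefSeq's promoter table lists first, and capitals mark matches on either strand to GGGCGG, the core of the Sp1 site, or GGAATG, the TEAD motif.
Itgb5 (chr16:33829415-33829664, plus strand): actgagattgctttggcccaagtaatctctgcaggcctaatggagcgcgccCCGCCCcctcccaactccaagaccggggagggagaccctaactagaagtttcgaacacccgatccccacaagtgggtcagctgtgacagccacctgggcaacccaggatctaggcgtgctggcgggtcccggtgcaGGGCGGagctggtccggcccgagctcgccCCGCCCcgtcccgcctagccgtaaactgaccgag
Itgb1 (chr8:128685404-128685653, plus strand): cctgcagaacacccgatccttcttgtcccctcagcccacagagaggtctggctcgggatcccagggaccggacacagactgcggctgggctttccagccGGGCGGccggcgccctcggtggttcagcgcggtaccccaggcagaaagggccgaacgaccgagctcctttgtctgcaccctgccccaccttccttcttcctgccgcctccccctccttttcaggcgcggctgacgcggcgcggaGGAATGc
Itgb7 (chr15:102231936-102232185, minus strand): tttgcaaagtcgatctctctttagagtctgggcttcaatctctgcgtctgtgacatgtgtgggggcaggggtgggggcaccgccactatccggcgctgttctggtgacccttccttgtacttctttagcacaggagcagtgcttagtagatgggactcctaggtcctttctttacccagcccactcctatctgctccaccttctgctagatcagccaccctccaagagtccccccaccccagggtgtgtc
Lamb3 (chr1:193301744-193301993, plus strand): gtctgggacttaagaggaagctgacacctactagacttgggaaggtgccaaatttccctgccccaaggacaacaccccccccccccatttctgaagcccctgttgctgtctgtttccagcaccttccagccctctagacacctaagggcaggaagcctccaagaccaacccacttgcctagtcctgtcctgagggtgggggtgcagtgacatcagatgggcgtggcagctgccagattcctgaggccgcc
The 2 annotations differ for Lamb3, whose sequence lies inside the gene as GENCODE places it, 94045 bases past the first base of that gene, and 9 bases of the Itgb7 sequence lie inside its GENCODE gene. GGGCGG occurred 3 times in the Itgb5 and 1 time in the Itgb1 sequence, and not in those of Itgb7 and Lamb3. Of the 9 called genes, all had an entry, and 4 held the motif in these 250 bases (Itga3, Itgb1, Itgb5 and Lamb1), as did 32.7% of 32851 promoters of the same length. Of the 13 tested genes with an entry, 6 held it, Itga5 and Lama5, which were not called, being added. The AP-1 motif TGANTCA was in none of the 9 (6.75% of all promoters) and TATAAA in none (12.4%), while CCAAT was in Lamb1 (33.8%) and GGAATG in Itgb1 (12.6%). All motifs were searched on both strands, and none of the matches in the printed sequences overlapped another motif. The G and C content was 65.2% in Itgb5, 68.0% in Itgb1, 56.0% in Itgb7 and 58.8% in Lamb3, with a median of 52.4% over all promoters. A match describes the letters of the sequence only, and whether these starts are used in these cells is not known from these data.

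Itgb5, the beta subunit that pairs with Itgav to bind vitronectin (chr16:33829665-33949338, GRCm38), had the smallest adjusted p of the 21 genes. Its log2 CPM was 8.61, 8.64, 8.93, 8.92 and 8.86 in controls 1 to 5. In stiripentol libraries 1 to 5 it was 7.09, 7.37, 7.56, 7.51 and 7.53. All stiripentol libraries lay more than 1 log2 unit below the lowest control. The means were 8.79 ± 0.16 and 7.41 ± 0.19 (SD, n = 5 each), a change of -1.38 (SE 0.12, limma adjusted p = 9.16e-05), which leaves 38.4% of the control level. The change was -1.66 in set A and -1.19 in set B.

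Itga3, the alpha subunit of the main receptor for laminins of epithelial basement membranes (chr11:95044474-95076801), was at 10.09, 10.06, 9.96, 9.51 and 9.48 in controls. It was at 8.66, 8.73, 8.88, 8.84 and 8.89 in stiripentol libraries. The groups did not overlap, and controls 1 to 3 were higher than controls 4 and 5. The change was -1.02 (SE 0.14, limma adjusted p = 0.000860), from 9.82 ± 0.30 to 8.80 ± 0.10 (SD, n = 5 each), or 49.3% of control. It was -0.80 in set A and -1.17 in set B.

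Itgb1 is the common beta subunit, the partner of Itga1, Itga2, Itga3, Itga5, Itga6, Itga7 and Itgav (chr8:128685654-128733200). Its log2 CPM was 10.25, 10.31, 10.45, 10.42 and 10.41 in controls and 10.05, 9.96, 10.01, 9.90 and 10.00 in stiripentol libraries. The spread within each group was small, and all treated libraries were below all controls. The change was the smallest among the 7 genes that fell, -0.38 (SE 0.09, 95% CI -0.57 to -0.19, limma adjusted p = 0.00926), leaving 76.8% of the control level. It was -0.41 in set A and -0.36 in set B, and with median-of-ratios scaling it was -0.30 and not called (adjusted p = 0.116).

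Itgav, an alpha subunit that binds RGD ligands with several beta subunits (chr2:83724397-83806916), was at 8.50, 8.49, 8.68, 8.62 and 8.76 in controls. Stiripentol libraries had 6.17, 6.54, 8.04, 7.92 and 7.99. The groups did not overlap, and stiripentol 1 and 2 lay far below stiripentol 3 to 5. The change was -1.28 (SE 0.36, limma adjusted p = 0.0238), and it was -2.34 in set A and -0.57 in set B, a difference with a limma interaction adjusted p of 3.81e-06. Without control 3 or stiripentol 2 the gene was no longer called (adjusted p = 0.0516 and 0.0559). Against controls 4 and 5 alone the Itgav change was -1.36 and not called (limma adjusted p = 0.146). Itga5, the alpha subunit of the fibronectin receptor, also had all treated libraries below all controls and narrowly missed the threshold. Its log2 CPM was 7.66, 7.59, 8.21, 7.62 and 7.67 in controls and 6.21, 6.39, 7.43, 7.40 and 7.45 in stiripentol libraries, a change of -0.77 (limma adjusted p = 0.0532) with -1.34 in set A and -0.40 in set B. It was called under quantile or median-of-ratios scaling (limma adjusted p = 0.0435 and 0.0297), with voom (0.0494), with a term for the set (0.00711) and without stiripentol 3, 4 or 5 (0.0394 to 0.0466).

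The collagen-binding subunits Itga1 and Itga2 lie beside each other on chromosome 13 (chr13:114953096-115101964 and chr13:114833081-114932100, both on the minus strand). Itga1 was at 2.95, 2.87, 4.40, 3.12 and 3.24 in controls and at 1.42, 1.52, 1.98, 1.79 and 2.06 in stiripentol libraries. Control 3 stood above the other controls, and no treated library reached any control. The change was -1.56 (SE 0.30, limma adjusted p = 0.00420), -1.71 in set A and -1.46 in set B, and it was -1.29 without control 3. Itga1 shares exon bases with the gene model Gm49395 on the same strand, whose reads cannot be told apart from its own in those bases. Itgav, Itga7, Itgb4 and Lamc3 share exon bases with a gene on the other strand, and the strand setting of the counting is not given. Itga2 was at 4.75, 4.64, 5.43, 5.25 and 5.62 in controls and at 3.19, 2.77, 4.64, 4.44 and 4.70 in stiripentol libraries. The groups overlapped, because stiripentol 5 exceeded control 2, and stiripentol 1 and 2 were the lowest. The change was -1.19 (SE 0.40, limma adjusted p = 0.0464), with -2.45 in set A and -0.35 in set B (limma interaction adjusted p = 0.000156). This call was lost without any 1 of the 5 controls or without stiripentol 1 or 2 (adjusted p = 0.0557 to 0.0999). It was also lost against controls 4 and 5 alone (-1.48, limma adjusted p = 0.124).

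Lamb1, the beta chain of the most widespread laminins (chr12:31265234-31329644), was at 8.87, 8.95, 9.24, 8.89 and 9.00 in controls. It was at 8.63, 8.64, 8.25, 8.13 and 8.23 in stiripentol libraries. The groups did not overlap, and here stiripentol 3 to 5 were the lowest. The change was -0.62 (SE 0.13, limma adjusted p = 0.00670), -0.31 in set A and -0.82 in set B (limma interaction adjusted p = 0.0108). With median-of-ratios scaling it was -0.54 and not called (limma adjusted p = 0.0608). Against controls 4 and 5 alone it was -0.57 and also not called (limma adjusted p = 0.0556). Lama5 and Lamc1, which form a trimer with Lamb1, had changes of -0.38 and -0.29 that were not called (limma adjusted p = 0.186 and 0.330).

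Itgb7, a beta subunit known from lymphocytes, where it pairs with Itga4 or Itgae (chr15:102215995-102231944), was at 4.01, 4.08, 3.50, 4.79 and 4.79 in controls. In stiripentol libraries it was at 5.52, 5.51, 7.69, 7.67 and 7.67. All treated libraries were above all controls, with stiripentol 3 to 5 about 2 log2 units above stiripentol 1 and 2. The means were 4.23 ± 0.56 and 6.81 ± 1.18 (SD, n = 5 each), a rise of 2.58 (SE 0.51, limma adjusted p = 0.00502) or 5.98-fold. The rise was 0.73 in set A and 3.82 in set B (limma interaction adjusted p = 6.48e-07), and against controls 4 and 5 alone it was 2.02 and not called (adjusted p = 0.107). Its known alpha partners were scarce. Itga4 had 0 reads in all 10 libraries, and Itgae had 14, 22, 10, 39 and 8 reads in controls and 30, 23, 32, 24 and 23 in stiripentol libraries. A count of 0 allows up to 3 reads in a library, from counting error only.

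Because Itgb7, Itgb2, Itgal and Itgam are known from leukocytes, leukocyte markers were read beside them. Of 7 such markers, 5 were in the table, and their summed level was 6.50 to 19.0 CPM in control and 59.0 to 103 CPM in stiripentol libraries. Cd68, a lysosomal glycoprotein, gave most of this, with mean log2 CPM of 2.98 and 6.19 (change 3.21, limma adjusted p = 0.000819). Lyz2 also passed the limit, with at most 216 reads in any library, and was not called (change 0.41, limma adjusted p = 0.648). The defining marker Ptprc had at most 3 reads, Itgam at most 2 and Csf1r at most 26 in any library. Their part in the rise of Itgb7 was not tested.

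Lamb3 is the beta chain that joins Lama3 in the laminin that anchors epithelia through Itga6 and Itgb4 (chr1:193207699-193343878). Its log2 CPM was 2.10, 2.06, 2.47, 6.12 and 6.10 in controls, so controls 4 and 5 lay nearly 4 log2 units above controls 1 to 3. Stiripentol libraries had 7.04, 7.04, 6.39, 6.37 and 6.32. All treated libraries were above all controls, but stiripentol 5 exceeded control 4 by only 0.19. The means were 3.77 ± 2.14 and 6.63 ± 0.37 (SD, n = 5 each), a rise of 2.86 (SE 0.84, 95% CI 1.00 to 4.72, limma adjusted p = 0.0293). The rise was 0.92 in set A and 4.15 in set B (limma interaction adjusted p = 1.73e-07). Against controls 4 and 5 alone it was 0.52 (adjusted p = 0.194), so its size rests on controls 1 to 3. The call was lost without control 1, 2 or 3 or stiripentol 1 or 2 (adjusted p = 0.0596 to 0.0716).

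**Figure D2:**
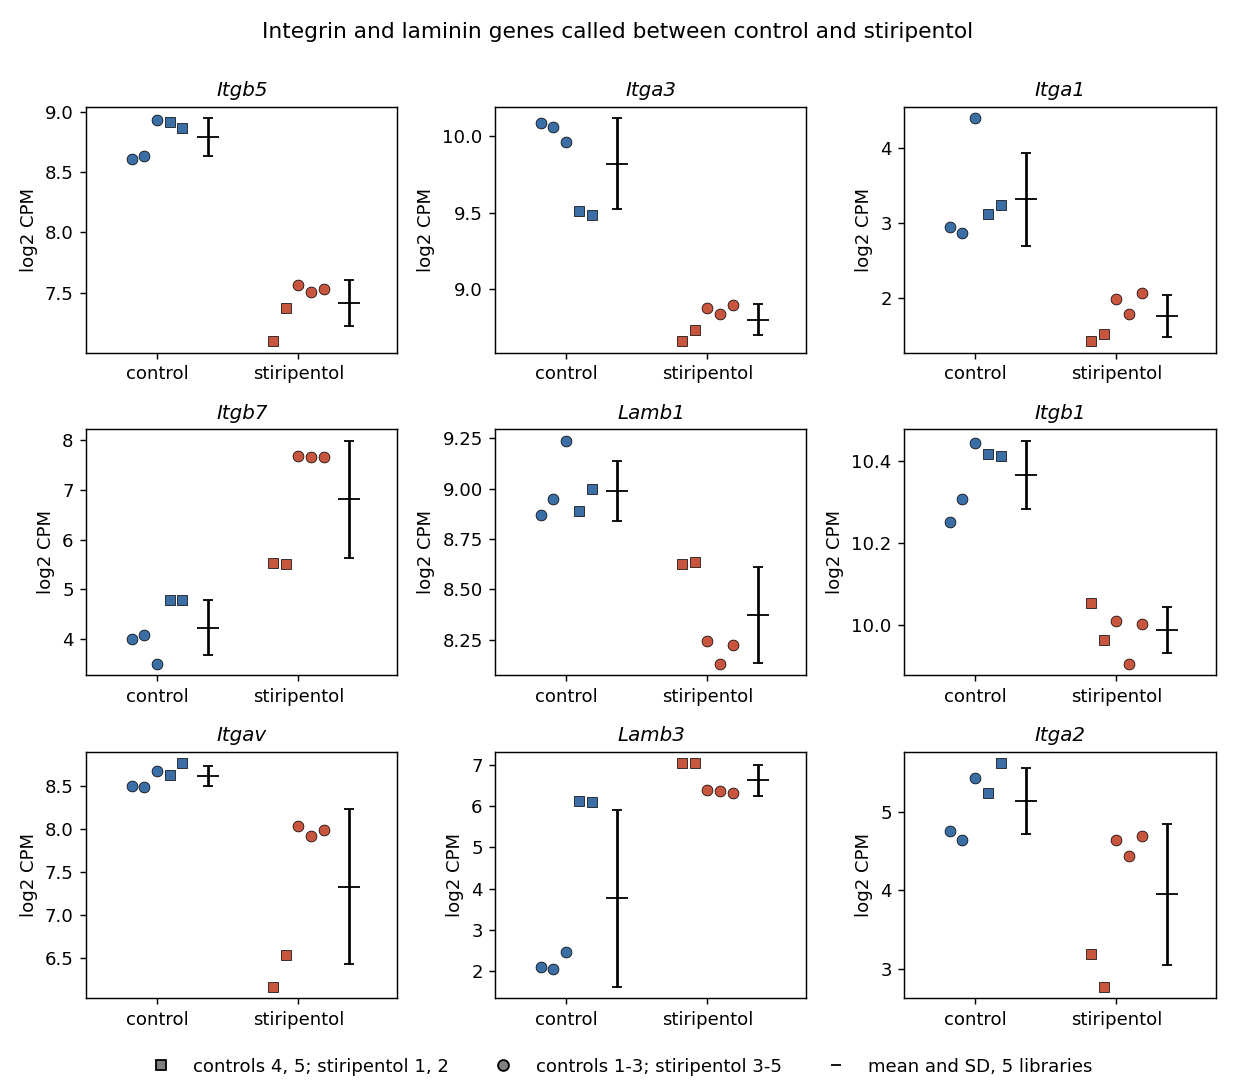
Log2 CPM (y axis, a scale of its own in each panel) of the 9 genes called between control (blue) and stiripentol (red), with 1 point per library, squares for set A, circles for set B, and the mean and SD of the 5 libraries beside them. The groups are apart in every panel but that of Itga2, and the circles of the Lamb3 controls lie near 2 while its squares lie near 6.

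Lama3, the alpha chain of the laminin that holds Lamb3, had 3, 4, 4, 10 and 2 reads in controls and 2, 1, 11, 10 and 7 in stiripentol libraries and was not tested. The receptor pair Itga6 and Itgb4 was not called over the 10 libraries. Itgb4 was 2.15 in control and 1.18 in stiripentol libraries (change -0.97, limma adjusted p = 0.120), with -2.10 in set A and -0.22 in set B, and it was called lower with a term for the set (adjusted p = 0.0493) and against controls 4 and 5 alone (-2.03, adjusted p = 0.00133).

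**Figure D3:**
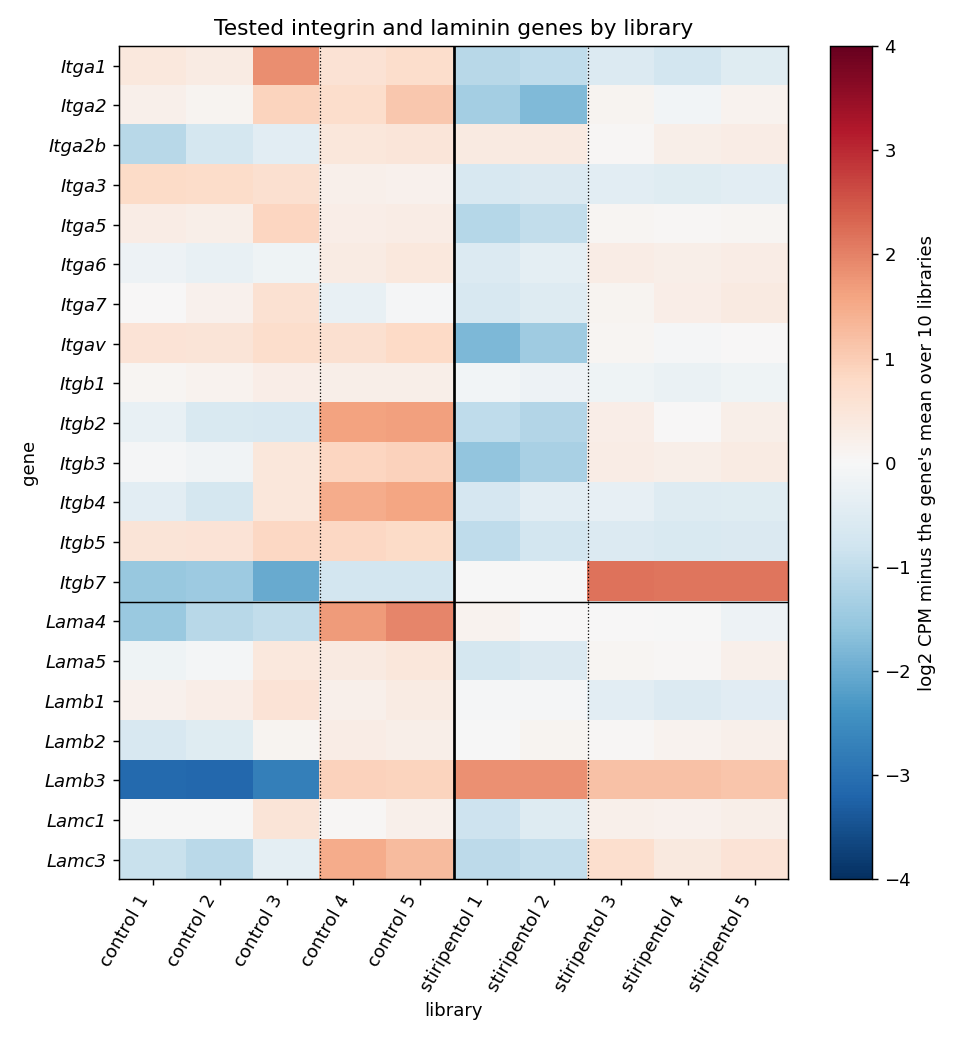
Log2 CPM of the 21 tested genes (rows of the map, integrins above the line and laminins below it) in each of the 10 libraries (columns, dotted lines between the 2 clusters of a group), shown as the difference from the mean of the gene over the 10 libraries. Controls 1 to 3 are dark blue for Lamb3, stiripentol 3 to 5 are dark red for Itgb7, and stiripentol 1 and 2 are bluer than stiripentol 3 to 5 for most integrins.

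The changes of most of these genes were not alike in the 2 sets. By a limma interaction term, 18 of the 21 changes differed between set A and set B, beside 63.3% of all genes. The error of this term, and of the fits within a set alone, comes from libraries of the same cluster. These p-values thus do not measure a spread between clusters. Of these, 9 had opposite signs in the sets, beside 31.7% of all genes. An opposite sign here need not be a called change in each set. Itga2b and Lamb2 were not called within set A (limma adjusted p = 0.508 and 0.0711). Itgb3, Lama5 and Lamc1 were not called within set B (limma adjusted p = 0.287, 0.778 and 0.799). The genes whose change was not shown to differ were Itga1, Itga7 and Itgb1. The change was lower in set A than in set B for 19 of the 21 genes, with median changes of -1.03 and 0.04 (all genes -0.25 and 0.08). This count rests on the pairing of the clusters, which is not known, and no share of all genes was taken for it. With the control clusters exchanged, the order turned for Itga2b, Itgb1, Itgb2, Itgb4, Lama4, Lamb2, Lamb3 and Lamc3, and the other way for Itga3. Within set A alone, 16 of the 21 genes were called lower (46.5% of all genes) and 2 higher (25.7%), and within set B alone 6 lower (27.0%) and 8 higher (37.7%). With a term for the set in the fit over the 10 libraries, 9 were lower (27.1% of all genes) and 2 higher (23.6%), Itga5 and Itgb4 being added to the 7 that fell. All 9 genes called over the 10 libraries had the same sign in both sets, and 7 of these changes differed in size. For all of them but Itga2 the groups did not overlap, so any split of the libraries had to give the same sign. With the control clusters exchanged between the sets, 14 changes differed (71.9% of all genes). Of these 14, 4 had opposite signs (40.9%), of which 3 were among the 9 with opposite signs above. The other was Itga7, at -0.84 for stiripentol 1 and 2 and 0.43 for stiripentol 3 to 5 (limma interaction adjusted p = 0.00235). Of the remaining 6 with opposite signs above, 5 then had 1 sign in both sets. Lamb2 kept opposite signs (0.39 and -0.12) without a called difference (limma interaction adjusted p = 0.0764).

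The 3 genes with called differences and opposite signs under both arrangements were Itga2b, Lama4 and Lamc1. Itga2b, the alpha subunit of the platelet fibrinogen receptor, was at 1.35, 1.74, 2.03, 2.91 and 2.93 in controls and 2.81, 2.80, 2.51, 2.68 and 2.74 in stiripentol libraries. The treated libraries were close together, above controls 1 to 3 and below controls 4 and 5, and the change was 0.51 (limma adjusted p = 0.230), -0.12 in set A and 0.93 in set B. Of 4 platelet and megakaryocyte markers, Itga2b was the 1 above the limit, and Pf4 had at most 1 read in any library. Lama4, an alpha chain of vessel and mesenchymal basement membranes, was at -0.14, 0.23, 0.35, 3.06 and 3.29 in controls and 1.48, 1.34, 1.35, 1.34 and 1.14 in stiripentol libraries. Here too the treated libraries were close together between the 2 control clusters, with -1.76 in set A, 1.13 in set B and -0.03 over all (limma adjusted p = 0.978). Lamc1, the gamma chain of most laminins, was at 8.89, 8.87, 9.41, 8.95 and 9.10 in controls and 8.06, 8.39, 9.08, 9.08 and 9.13 in stiripentol libraries. Stiripentol 1 and 2 were the lowest of the 10, and the change was -0.80 in set A and 0.04 in set B.

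Among the 6 genes that met this in sets A and B but not with the control clusters exchanged, Itga6 and Itgb3 are integrin subunits of laminin and of RGD ligands. Itga6 was at 7.27, 7.19, 7.29, 7.82 and 7.91 in controls and 6.94, 7.09, 7.79, 7.73 and 7.77 in stiripentol libraries, a change of -0.03 (95% CI -0.52 to 0.45, limma adjusted p = 0.917), -0.85 in set A and 0.51 in set B. Itgb3, which pairs with Itgav or Itga2b, was at 5.96, 5.87, 6.48, 6.87 and 6.95 in controls and 4.43, 4.72, 6.31, 6.24 and 6.35 in stiripentol libraries. For both genes stiripentol 1 and 2 lay below every other library, and the Itgb3 change of -0.82 (limma adjusted p = 0.164) was -2.34 in set A and 0.19 in set B. Itgb2, the beta subunit of leukocyte integrins, was at 1.24, 0.94, 0.89, 3.13 and 3.17 in controls and 0.51, 0.36, 1.79, 1.57 and 1.78 in stiripentol libraries. Controls 4 and 5 stood above all other libraries, and the change was -2.72 in set A and 0.69 in set B (-0.68 over all, limma adjusted p = 0.374).

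The remaining 3 were laminin chains. Lama5, the alpha chain of most adult epithelial laminins, was at 9.69, 9.78, 10.27, 10.21 and 10.30 in controls and 9.16, 9.28, 9.93, 9.89 and 10.07 in stiripentol libraries. Stiripentol 1 and 2 were the lowest, with -1.03 in set A and 0.05 in set B. Lamb2, the beta chain that takes the place of Lamb1 at synapses and in kidney, was at 7.37, 7.55, 8.12, 8.32 and 8.24 in controls and 8.00, 8.13, 8.08, 8.17 and 8.22 in stiripentol libraries, a change of 0.20 (95% CI -0.20 to 0.60, limma adjusted p = 0.422). Its controls 1 and 2 were the lowest of the 10, and the sets gave -0.21 and 0.48. Lamc3, a gamma chain, was at 1.05, 0.88, 1.55, 3.43 and 3.22 in controls and 0.89, 0.99, 2.62, 2.34 and 2.51 in stiripentol libraries. Controls 4 and 5 were the highest, and -2.39 in set A stood against 1.33 in set B, with -0.16 over all (limma adjusted p = 0.856). Itga7, a laminin-binding alpha subunit known from muscle, was 1.11 in control and 0.94 in stiripentol libraries (change -0.17, limma adjusted p = 0.672). Its change was -0.40 in set A and -0.01 in set B, and it had opposite signs only with the control clusters exchanged.

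The 13 genes at or below the limit were not in the test. Itgb8, a beta subunit that pairs with Itgav, had 185, 135, 214, 29 and 9 reads in controls and 3, 2, 5, 8 and 10 in stiripentol libraries, 572 against 28 in all. Every treated library lay below every control in log2 CPM, although controls 4 and 5 lay well below controls 1 to 3 and control 5 is the shallowest library. With no filter its change was -3.48 (limma adjusted p = 0.00914) and that of Itga11, a collagen-binding alpha subunit, was -2.50 (limma adjusted p = 0.0439), beside 6.63% of all 26335 genes called lower there. Itga11 had 29, 19, 35, 105 and 59 reads in controls and 1, 3, 9, 12 and 18 in stiripentol libraries, and the groups overlapped in log2 CPM. The highest read count in any library was 240 for Lama1, 101 for Itga10, 39 for Itgae, 34 for Itgb6, 14 for Itga8, 12 for Itga9, 11 for Lama3, 6 for Lama2, 4 for Itgal, 2 for Itgam and 0 for Itga4. With no filter none of these 11 was called by limma, and Lama1, Itga9 and Itgb6 had an unadjusted p under 0.05 (changes of -1.36, -1.22 and -1.55, adjusted p = 0.147, 0.1002 and 0.153).

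Genes that work with integrins and laminins were counted in 6 lists, with 50 of 64 tested. Of the 50, 21 fell and 1 rose (14.1% and 13.6% of all genes), with a median change of -0.44 beside -0.06 over all genes. Of 18 focal adhesion genes, which link integrins to actin and to kinases, 8 fell and none rose at this threshold. They were Ilk, a scaffold that binds beta subunits (7.74 ± 0.18 to 6.40 ± 0.27, change -1.34, limma adjusted p = 0.000229), Tns3, a tensin (-1.51, adjusted p = 0.0258), Flna, Vcl, Parva, Bcar1, Actn1 and Src. All stiripentol libraries were below all controls for these 8 and for Actn4, which was not called (14.3% of all genes). Of 8 tested genes of integrin activation, Tln1, the talin that switches integrins on, fell (-0.86, limma adjusted p = 0.00428) and Itgb1bp1, which binds the Itgb1 tail in competition with talin, rose (0.93, adjusted p = 0.0117). None of the 3 tested hemidesmosome genes was called, with changes of -0.86 for Plec, -0.12 for Cd151 and 0.15 for Dst.

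Of 8 tested genes of the basement membrane other than laminins, 4 fell and none rose at this threshold (14.1% and 13.6% of all genes). Of the 4, Agrn, a heparan sulfate proteoglycan that binds laminin, fell the most (-1.11, limma adjusted p = 0.0153). Sparc, a collagen-binding protein (-0.65, adjusted p = 0.00135), Col4a5 and Col18a1 fell as well. Hspg2 had a larger change than Sparc, -0.83, but was not called (limma adjusted p = 0.0524). Of 5 laminin receptors that are not integrins, 3 fell: Sdc1, a syndecan (-1.13, limma adjusted p = 0.00233), Dag1, dystroglycan (-1.02, adjusted p = 0.00224), and Sdc4. Bcam (-0.85, limma adjusted p = 0.169) and Rpsa (0.40, adjusted p = 0.0695) were not called. Of 8 tested ligands of other integrins, 5 fell and none rose. Thbs1, thrombospondin, changed by -3.23 (limma adjusted p = 0.000239) and Spp1, osteopontin, by -2.36 (adjusted p = 0.00407), and Vcam1, Ltbp1 and Npnt also fell. Fn1, fibronectin, the ligand of Itga5, had 12.51 ± 0.27 in control and 12.60 ± 0.45 in stiripentol libraries (SD, n = 5 each) and was not called. Fibroblast markers, whose cells make much matrix, summed to 167 to 392 CPM in control and 105 to 127 CPM in stiripentol libraries. Col1a2 and Pdgfra were lower (log2 changes of -2.30 and -1.27, limma adjusted p = 0.000571 and 0.0152). Col1a1 and Dcn were not called (-0.54 and -0.49, limma adjusted p = 0.529 and 0.557), and Lum had at most 3 reads in any library. The part of fibroblast markers in these changes was not tested. The change differed between the sets for 29 of the 50 partner genes (63.3% of all genes), with opposite signs for 13 (31.7%). It differed for 10 of the 22 that were called, all 22 of which had the same sign in both sets. For all of these 22 but Col4a5 and Vcam1 the groups did not overlap, so the same sign was fixed in advance. Spp1 changed by -0.92 in set A and -3.31 in set B, Agrn by -2.11 and -0.44, and Npnt by -1.87 and -0.28 (limma interaction adjusted p = 5.88e-06, 4.12e-06 and 1.52e-06). Fn1 had 0.70 in set A and -0.33 in set B (adjusted p = 0.00207). None of 4 endothelial markers passed the limit. Leaving out 1 library ended the call of 6 of these partner genes in turn (limma adjusted p = 0.0501 to 0.112): Col4a5 and Vcam1 without most single libraries, Sdc4 without control 1, 2 or 3 or stiripentol 1 or 2, Bcar1 and Tns3 without control 1, 2 or 3 or stiripentol 2, and Npnt without stiripentol 2.

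**Figure D4:**
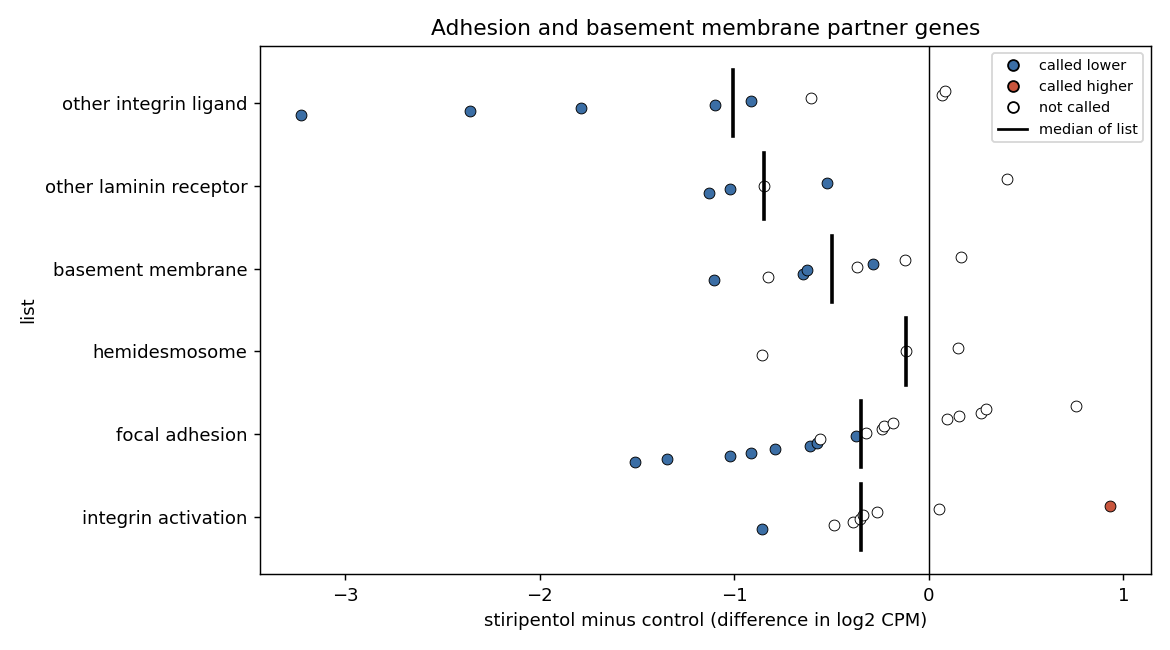
Difference in log2 CPM (stiripentol minus control, x axis) of the 50 tested partner genes, 1 point per gene, in 6 lists (y axis), blue where called lower, red where called higher and white where not called, with the median of each list as a bar. The 21 blue points lie left of 0, and the 1 red point is Itgb1bp1.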

How the data were processed

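RNA sequencing of 5 control and 5 stiripentol libraries was analysed from 1 table of 26335 rows. Its log2 CPM values were deposited by the authors for every gene in each library, normalized with GENAVi per the study's methods, with a prior of 0.837 to 2.38 reads added before the logarithm. The authors also deposited group means, p-values, q-values, fold changes and their log2, which were not used here. The study's methods name 3′ mRNA libraries (Lexogen QuantSeq) and the sample records TruSeq total RNA. No test therefore compared levels between genes, and levels of different genes set side by side or summed, as for markers, are rough. The submitters' processing notes name mm10, and the aligner, annotation and strand setting are not given in the sources used here. A gene without reads has -4.82 in controls 1 to 3 and -4.74 in the other 7 libraries, so controls 1 to 3 were normalized apart from the rest.

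Whole reads were recovered for 100% of the values (tolerance 0.1 read), with 22375625 to 65299372 reads per library. Counts cover counting error only. Groups came from the sample titles. Groups were compared with limma 3.58.1 in R 4.3.3 (lmFit, eBayes with trend) on the deposited values of the 12306 genes with a mean above 0, adjusted by Benjamini-Hochberg. The difference between sets A and B was an interaction term, whose error comes from the spread of libraries within a cluster only. Libraries of a cluster were counted as separate replicates. Alternatives were other scalings, filters, pseudocounts of 0.1 and 1 CPM, voom, a replicate block, a set term, each set alone, averaging, and each library left out. Results of 1 subunit gene and 2 marker genes are not reported here. Every other subunit gene above the limit is named, with values per library where the change was called or had opposite signs in the sets. The genes, lists and motifs were chosen with earlier results of these data known. Promoters are from RefSeq (GRCm38.p6) and gene positions from GENCODE M21 (GRCm38). The scripts were tested on simulated data. Python 3.11.15, pandas 2.3.3, numpy 2.4.6 and matplotlib 3.10.9 were used.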

Additional observations from a re-analysis of the deposited data

Results flagged for a closer look

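Control 3 stood apart from the other 4 controls for Itga1, with a log2 CPM of 4.40 where the next control had 3.24, and for Itga5, with 8.21 where the next had 7.67, and the change of Itga5 was -0.66 without it. Control 5 had 22375625 reads where the next control had 57991647. These came from 44 groups of 5 libraries examined by Dixon's gap test, of which chance gives about 2.2. No cause was tested.

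The change differed between the 2 sets of libraries for 18 of the 21 tested genes by a limma interaction term, given here as the change in set B (controls 1 to 3, stiripentol 3 to 5) minus that in set A (controls 4 and 5, stiripentol 1 and 2) on the log2 scale. Among integrin alpha genes the difference was 2.10 for Itga2, 1.05 for Itga2b, -0.37 for Itga3, 0.95 for Itga5, 1.37 for Itga6 and 1.77 for Itgav. Among integrin beta genes it was 3.41 for Itgb2, 2.53 for Itgb3, 1.88 for Itgb4, 0.47 for Itgb5 and 3.09 for Itgb7. Among laminin genes it was 2.89 for Lama4, 1.08 for Lama5, -0.50 for Lamb1, 0.69 for Lamb2, 3.22 for Lamb3, 0.84 for Lamc1 and 3.71 for Lamc3. The sets differ in their libraries, and culture, preparation and sequencing cannot be told apart here.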

How the results depend on the processing

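Of the 9 called genes, none changed direction under any of 23 alternatives. For fits on part of the libraries this was fixed in advance for all but Itga2, as their groups did not overlap. Itga1, Itga3 and Itgb5 were called in 22 of the alternatives, Itgb1 and Itgb7 in 21, Lamb1 in 20, Itgav in 19, Lamb3 in 14 and Itga2 in 12. Genes called lower were 16 within set A alone (46.5% of all genes) and 5 to 8 with 1 library left out (1171 to 1802 of 12306). They were 0 when the libraries of a group and set were averaged first (2 means against 2). After averaging, 7 of the 21 genes and 1116 of all genes had an unadjusted limma p under 0.05, and no gene passed adjustment. Genes called higher were 8 within set B alone (37.7% of all genes) and 0 after averaging. They were 1 with no filter (1705 of 26335 genes) and 1 to 2 with 1 library left out (1218 to 1706 of 12306). With controls 4 and 5 against all stiripentol libraries, 0 were called higher and 7 lower (1249 and 1215 of 12306 genes). Itga1, Itga3, Itgb1 and Itgb5 kept their call there. Itga2, Itgav and Lamb1 lost it (limma adjusted p = 0.124, 0.146 and 0.0556). Itgb2, Itgb4 and Lama4 were called lower instead (-1.95, -2.03 and -1.84, adjusted p = 0.0308, 0.00133 and 0.00192). Whether control and stiripentol libraries with the same replicate number are paired is not stated in the sample records. As deviations from their group means, such libraries correlated at -0.24 to 0.06. These deviations also hold the 2 clusters of each group, so they cannot decide the pairing. With these numbers as a replicate block, 9 genes were lower (Itgb3 and Lama5 added) and 1 higher, Lamb3 being lost, while 1062 and 1020 of all genes were called lower and higher.

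Partner genes called lower were 28 of 50 with a term for the set (27.1% of all genes), 38 within set A (46.5%) and 26 within set B (27.0%). They were 0 after averaging and 15 to 20 with 1 library left out (1171 to 1802 of 12306 genes). They were 10 with an absolute log2 change of at least 1, for which no share of all genes was taken. Partner genes called higher were 3 with a term for the set (23.6% of all genes), 4 within set A (25.7%) and 8 within set B (37.7%). They were 0 with the block (1020 of 12306 genes), 2 with quantile scaling (2085 of 12306) and 2 with no filter (1705 of 26335). With 1 library left out they were 1 to 2 (1218 to 1706 of 12306 genes). They were 0 after averaging and 0 with the minimum change of 1. Quantile scaling moved the median change of all genes by 0.10 (from -0.06 to 0.05).

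Changes that turned sign were those of genes not called. Within set B they were 0.51 for Itga6, 0.69 for Itgb2, 0.19 for Itgb3, 1.13 for Lama4, 0.050 for Lama5, 0.043 for Lamc1 and 1.33 for Lamc3. Within set A they were -0.12 for Itga2b and -0.21 for Lamb2, and with controls 4 and 5 against all stiripentol libraries -0.22 and -0.16, and 0.10 for Itga7. Scaling turned Itga7 to 0.12, Lama4 to 0.22, Lamc3 to 0.091 and Itga6 to 0.0036 (quantile), and Lama4 to 0.046 and Itga6 to 0.043 (median-of-ratios). With voom on the recovered reads Lama4 was 0.10. With 1 library left out, Itga6 ranged from -0.12 to 0.10, Lama4 from -0.40 to 0.45 and Lamc3 from -0.44 to 0.19. The changes that differed between the sets numbered 16 to 19 with 1 library left out, and 14 with the control clusters exchanged, an alternative chosen after seeing the data. The cause of these shifts was not tested. Depth limits the genes under the limit, and control 5 has the fewest reads.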
